A study of Homo sapiens with 48 samples.

Results

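Small nucleolar RNA (snoRNA) host genes are transcribed genes whose introns carry snoRNAs. The members were taken by name from the count table, as every SNHG gene followed by a number together with GAS5, ZFAS1 and DANCR, whatever their values, which gave 31 of 60610 genes listed. Of these, 25 had enough counts to be tested, among 19626 genes in all. The cells were HEK293, a line from human embryonic kidney, as 1 clone that carries a stably transfected AT1R, the receptor of angiotensin II (AII), whose transgene reads as AGTR1. Every group held the transgene and was kept without serum, with no stimulus (control), 1 nM AII, 10 µg/L EGF, or both (AII + EGF), for 6 h or for 24 h. Polyadenylated RNA was sequenced, with 6 libraries labelled for each of the 8 groups. Of the 48 libraries, 38 were used: 4 control, 5 AII, 3 EGF and 4 AII + EGF libraries at 6 h, and 6, 5, 5 and 6 at 24 h.

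The other 10 libraries were set aside for reasons of their own values. In 4 pairs of libraries the counts differed by less than sampling noise, with chi-square per degree of freedom of 0.397 to 0.505 against 2.02 for the next closest pair, and 3 of these 4 pairs joined different groups, so all 8 were left out. AII 6 h replicate 6 and AII + EGF 6 h replicate 6 lay at 0.854 and -0.006 on a scale from 0 (AII) to 1 (AII + EGF) over the 1492 genes called between those groups, against their labels, and were left out too. Totals of the libraries used ran from 17.78 to 29.96 M counts, and the 3 EGF 6 h libraries were the deepest (28.03 to 29.96 M). HEK293 markers were present in all 38 libraries. Apart from the AGTR1 transgene, the highest was NEFM (2405 to 9529 CPM, the counts scaled to a common library total) and the lowest PAX2 (0.2735 to 3.904 CPM). For 6 markers of other cell types each library was at or under 0.575 CPM, a range that PAX2 overlapped. The labels do not say whether replicates came from separate cultures, so p-values measure the spread between these libraries, which may be technical. Libraries of 1 group were closer within a stretch of consecutive titles (title run) than across runs. Their median chi-square per degree of freedom was 9.57 against 38.1, and the fit took all libraries as independent. EGF at 6 h came from 2 title runs, each other 6 h group from 3 and each 24 h group from 4.

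As background, box C/D snoRNAs (SNORD genes) guide ribose methylation of ribosomal RNA, box H/ACA snoRNAs (SNORA genes) guide its pseudouridylation, and small Cajal body RNAs (SCARNA genes) do the same on spliceosomal RNAs. The intron is debranched and trimmed to release the guide, while the spliced host transcript leaves the nucleus. Many host genes start with a C followed by pyrimidines, the terminal oligopyrimidine (TOP) start they share with ribosomal protein genes, and several spliced hosts, GAS5 among them, are known substrates of nonsense-mediated decay (NMD) while they are translated. A host's RNA level in these libraries is therefore the level of the spliced transcript and not that of its guides. By RefSeq positions, 10 of the 25 tested hosts held only SNORD genes in their span, 10 only SNORA genes and 3 only a SCARNA gene, and GAS5 and SNHG12 held both kinds. GAS5 held 10 SNORD genes and 1 SNORA gene, and SNHG1 held 8 SNORD genes.

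The start regions of some of the hosts are shown for their letters around the start, since the 3 hosts called at 6 h differ in them. SNHG5 and ZFAS1, which passed no threshold, are among those shown. SNHG4 and DANCR, which passed one, are not. The sequences come from RefSeq (GRCh38.p14, the build the files use under the name hg38), where 22 of the 25 tested members had an entry. Each line runs 5′ to 3′ on the strand of the gene, from 60 bases before the annotated start to 40 bases from it on: SNHG7 at chr9:136728145-136728244 (minus strand), GAS5 at chr1:173869006-173869105 (minus strand), SNHG32 at chr6:31834856-31834955 (plus strand), SNHG20 at chr17:77088583-77088682 (plus strand), SNHG19 at chr16:2155319-2155418 (minus strand), SNHG5 at chr6:85678694-85678793 (minus strand), ZFAS1 at chr20:49278582-49278681 (plus strand), SNHG16 at chr17:76557704-76557803 (plus strand), SNHG1 at chr11:62855846-62855945 (minus strand) and SNHG17 at chr20:38435289-38435388 (minus strand). Capitals mark the letters TATAA between 40 and 20 bases before the start, and the C and the pyrimidines after it where the annotated start has a C followed by at least 4 of them, otherwise the first base alone.
SNHG7: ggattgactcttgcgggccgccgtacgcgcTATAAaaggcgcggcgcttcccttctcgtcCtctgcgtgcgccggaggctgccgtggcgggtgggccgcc
GAS5: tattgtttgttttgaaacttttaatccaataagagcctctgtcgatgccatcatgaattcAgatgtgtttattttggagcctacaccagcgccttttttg
SNHG32: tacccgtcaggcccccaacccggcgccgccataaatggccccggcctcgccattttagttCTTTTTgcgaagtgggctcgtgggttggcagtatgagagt
SNHG20: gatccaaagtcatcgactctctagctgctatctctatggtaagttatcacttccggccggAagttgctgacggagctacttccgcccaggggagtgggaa
SNHG19: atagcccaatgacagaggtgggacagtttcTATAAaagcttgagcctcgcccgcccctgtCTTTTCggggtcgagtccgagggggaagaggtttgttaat
SNHG5: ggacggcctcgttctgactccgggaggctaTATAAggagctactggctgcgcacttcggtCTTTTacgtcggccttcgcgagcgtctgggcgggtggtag
ZFAS1: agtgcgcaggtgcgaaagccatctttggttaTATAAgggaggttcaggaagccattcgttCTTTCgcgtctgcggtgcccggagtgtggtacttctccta
SNHG16: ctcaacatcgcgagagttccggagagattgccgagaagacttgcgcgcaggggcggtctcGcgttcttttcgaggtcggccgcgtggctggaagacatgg
SNHG1: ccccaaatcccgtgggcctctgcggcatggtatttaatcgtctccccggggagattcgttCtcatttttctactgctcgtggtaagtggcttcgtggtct
SNHG17: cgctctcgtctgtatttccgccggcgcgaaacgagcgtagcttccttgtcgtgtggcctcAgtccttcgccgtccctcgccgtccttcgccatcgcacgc
A C followed by at least 4 of C or T from the annotated start was found in 6 of the 22 members (SNHG4, SNHG5, SNHG12, SNHG19, SNHG32 and ZFAS1), against 4.07% of 35116 human promoters. The letters TATAA on the gene strand lay in that window in 6 of the 22 (SNHG5, SNHG7, SNHG8, SNHG12, SNHG19 and ZFAS1), against 3.91% of all promoters. CACGTG, searched on both strands over the 300 bases of an entry, was in 2 (SNHG7 and SNHG30), against 7.26%, and TGACGTCA was in none, against 1.85%. The annotated start of GAS5 had no such C, and SNHG7 had a C and 3 further pyrimidines. Only 1 annotated start per gene was read, and other starts of the same gene were not looked at. For ZFAS1 and SNHG12 the start read lay inside the RefSeq span of the gene and not at its end.

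At 6 h, AII + EGF lowered 3 of the 25 host genes, and raised none, at an adjusted p under 0.01, at least 1.5-fold and more than 5 CPM in edgeR. These are the study's thresholds, which it applied to genes found by both edgeR and DESeq2. Those were SNHG7, which hosts SNORA17A and SNORA17B, the growth-arrest transcript GAS5, and SNHG32, which hosts SNORD48 and SNORD52. Over all 19626 genes the same rule called 11.98%, with 5.53% of genes lower and 6.45% higher. The 3 of 25 members were near the share called in either direction and above the share called lower, a difference that was not tested. DESeq2 called the same 3 members and SNHG19. In bulk RNA, fewer cells that express a gene and less of its RNA per cell cannot be told apart. All tests against control are from edgeR's quasi-likelihood fit of the 38 libraries, with Benjamini-Hochberg adjustment over all genes tested, and log2 changes are given ± SE.

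SNHG7 in the control 6 h libraries was at 90.9, 92.9, 94.97 and 119.9 CPM. After AII it was at 82.4, 88.9, 92.2, 94.7 and 95.5 CPM, and after EGF at 68.0, 71.5 and 84.3 CPM. The 4 libraries of AII + EGF held 42.5, 44.7, 53.4 and 59.8 CPM. Every library of EGF and of AII + EGF lay below every control library, and no AII + EGF library overlapped with any other group at 6 h. The log2 change was -0.99 ± 0.15 for AII + EGF (adjusted p = 2.34e-06), a fall to 0.502 of control. For EGF it was -0.42 ± 0.16 (adjusted p = 0.139) and for AII -0.14 ± 0.14 (adjusted p = 0.775), neither past the threshold. The fall was called in every alternative and with each library left out in turn, and over all 48 libraries it was -0.88 (adjusted p = 9.88e-06). Of the EGF 6 h libraries set aside, replicates 2 and 6, which are near-identical to each other, held 109.9 and 109.3 CPM, and replicate 1, near-identical to AII + EGF 6 h replicate 4 (54.7 CPM), held 54.0 CPM. Within the 2 stretches of consecutive titles that held both groups (title runs, which pass once through the 4 treatments), the AII + EGF libraries differed from control by -1.24 and -0.61 on the log2 scale.

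GAS5, named for its rise in growth-arrested cells, had a wide spread in control, with 6 h libraries at 254, 327, 369.8 and 494 CPM. AII libraries held 253, 259, 332, 357 and 359 CPM and EGF libraries 274, 289.8 and 359 CPM. With AII + EGF the values were 206, 216, 218 and 252 CPM, the highest of them just below the lowest control library. The log2 change of AII + EGF was -0.70 ± 0.19 (adjusted p = 0.00365), and those of AII and of EGF were -0.21 ± 0.18 and -0.23 ± 0.20 (adjusted p = 0.697 and 0.623). This call rested on single libraries: without control 6 h replicate 3, the highest of its group, the change was -0.51 (adjusted p = 0.0403), and without AII + EGF 6 h replicate 1, 2 or 3 the adjusted p was 0.0141, 0.0113 and 0.0113. Over all 48 libraries the change was -0.61 (adjusted p = 0.00211), and the title-run differences were -0.88 and -0.56.

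SNHG32 was at 35.6, 40.8, 45.4 and 48.8 CPM in the control 6 h libraries and at 39.1, 40.2, 41.99, 44.7 and 51.1 CPM after AII. EGF alone gave 30.9, 33.9 and 33.9 CPM, and AII + EGF 26.6, 26.8, 27.1 and 29.8 CPM. Control and AII overlapped, whereas every EGF and every AII + EGF library lay below them. The log2 change was -0.63 ± 0.16 for AII + EGF (adjusted p = 0.00256), -0.37 ± 0.18 for EGF (adjusted p = 0.251) and 0.03 ± 0.15 for AII (adjusted p = 0.97). Without control 6 h replicate 3 or 6 the adjusted p was 0.0134 and 0.0101, and with title run as a block the change was -0.56 (adjusted p = 0.0205). Over all 48 libraries it was -0.59 (adjusted p = 0.00144), and the title-run differences were -0.74 and -0.42.

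**Figure D1:**
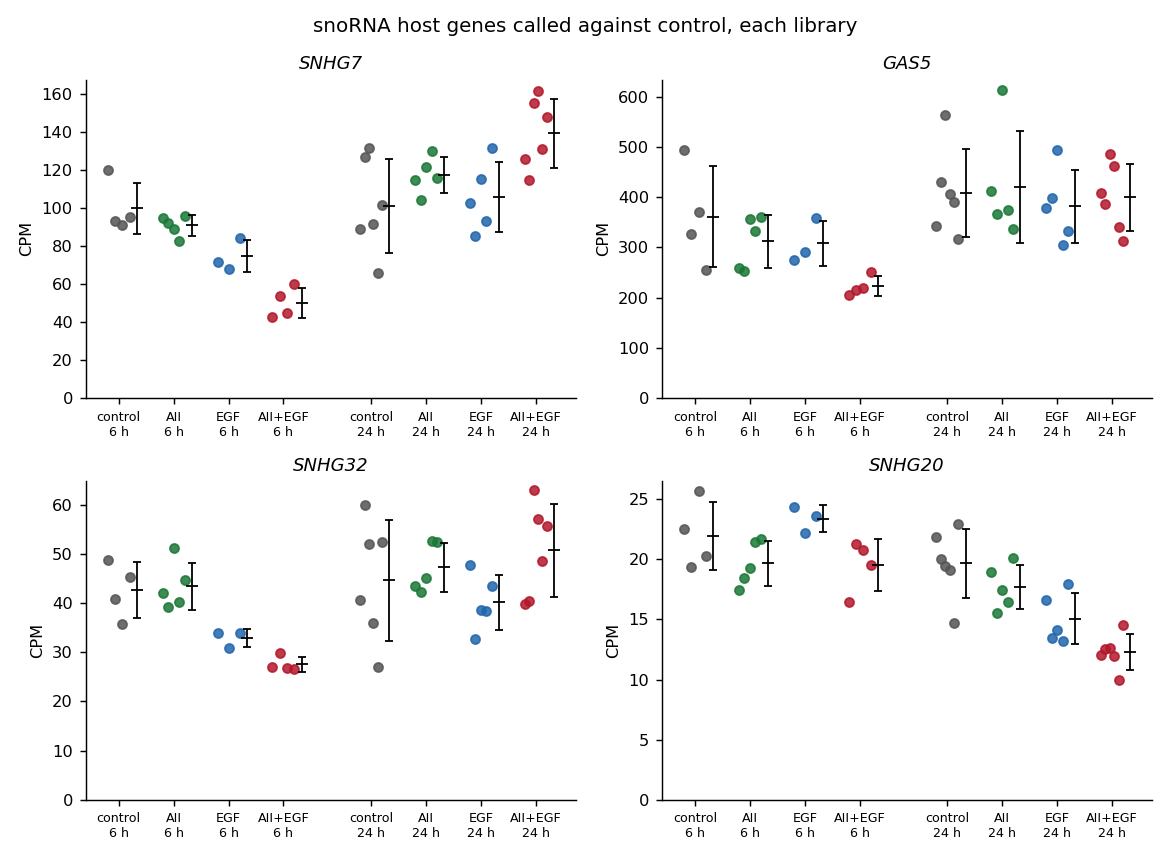
CPM (scaled by TMM factors, linear axis from 0) of the 4 host genes called against control, by stimulus and time, with 1 point for each library and bars for the mean ± SD. At 6 h the AII + EGF libraries of SNHG7, GAS5 and SNHG32 lie below all control libraries, and at 24 h the same holds for SNHG20 alone among the 4.

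Only SNHG17, which hosts 4 SNORA71 genes, went the other way past the p-value threshold at 6 h, and by less than 1.5-fold. It read 41.5, 41.8, 42.8 and 46.5 CPM in control libraries, 47.3, 48.8 and 52.3 CPM after EGF, and 54.1, 54.4, 55.7 and 59.3 CPM after AII + EGF. The AII libraries (40.6 to 43.2 CPM) overlapped with control, and the EGF and AII + EGF libraries lay above it. Its log2 change was 0.37 ± 0.09 with AII + EGF (adjusted p = 0.00174) and 0.20 ± 0.10 with EGF (adjusted p = 0.302), and with library totals in place of TMM factors that of AII + EGF was 0.27 (adjusted p = 0.0926). With SNHG17, 4 of 25 members passed the p-value threshold, beside 23.4% of all genes. SNHG19 and SNHG11 missed the threshold narrowly in edgeR, SNHG19 alone of them being called by DESeq2, at -0.69 ± 0.22 (adjusted p = 0.0126) and -0.57 ± 0.18 (adjusted p = 0.0111), and for both no AII + EGF library overlapped with control. In all, 6 of the 25 members had AII + EGF libraries that did not overlap with control at 6 h, against 33.4% of all genes. The median change of the 25 was -0.19, beside -0.03 for all genes tested, and 20 of 25 estimates were below 0, beside 52.5% of all genes. The level summed over the 25 was 1981 ± 268 CPM in 4 control libraries (mean ± SD) and 1578 ± 158 CPM in 4 of AII + EGF, with values of 1745 to 2346 and 1417 to 1785 CPM that overlapped.

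No member passed the threshold under either stimulus alone at 6 h. For AII, 0 of 25 were called, beside 0.469% of all genes, and for EGF 0 of 25, beside 1.94%. An unadjusted p under 0.05 was found for 4 members under AII, beside 2367 of 19626 genes, and for 2 under EGF, beside 3489. DESeq2 also called none under either stimulus. All AII libraries lay below control for SNHG4 alone, beside 7.52% of genes without overlap, and EGF libraries did not overlap with control for SNHG7, SNHG32 and SNHG17, beside 22.1%. Under AII, 23 of 25 estimates were nonetheless below 0, with a median of -0.23 beside -0.01 for all genes, of which 51.5% were below 0. The lowest were SNHG19 (-0.45 ± 0.20, adjusted p = 0.339) and SNHG8 (-0.42 ± 0.16, adjusted p = 0.223). Cytosolic ribosomal protein genes had a similar median under AII, -0.18 over 77 genes. All 25 host estimates shared the same 4 control libraries. AII and AII + EGF 6 h replicates 1 and 2 came from a title run whose control libraries were left out. Within the title runs that held both groups, AII differed from control by -0.22 and -0.04 for GAS5. The same differences were -0.30 and 0.07 for SNHG7 and 0.02 and 0.325 for SNHG32. Under EGF the median of the host genes was -0.05, with 15 of 25 below 0. AII + EGF against AII alone at 6 h called SNHG7 (-0.86 ± 0.15, adjusted p = 1.97e-05) and SNHG32 (-0.66 ± 0.16, adjusted p = 0.00152), both lower, beside 7.60% of all genes. Against EGF alone none of the 25 passed with edgeR or DESeq2, beside 2.92% of all genes called. SNHG7 came closest (-0.58 ± 0.16, adjusted p = 0.0171), and 3 members had an unadjusted p under 0.05, beside 4618 of 19626 genes. The interaction is AII + EGF less the sum of both single changes. It was called for no member at 6 h or 24 h by either tool, beside 0.229% and 0.00% of all genes. No member had an unadjusted p under 0.05 for it, beside 1916 of 19626 genes at 6 h and 660 at 24 h. For SNHG7 the interaction at 6 h was -0.44 ± 0.22, with a 95% interval of -0.88 to 0.0001 (adjusted p = 0.512).

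**Figure D2:**
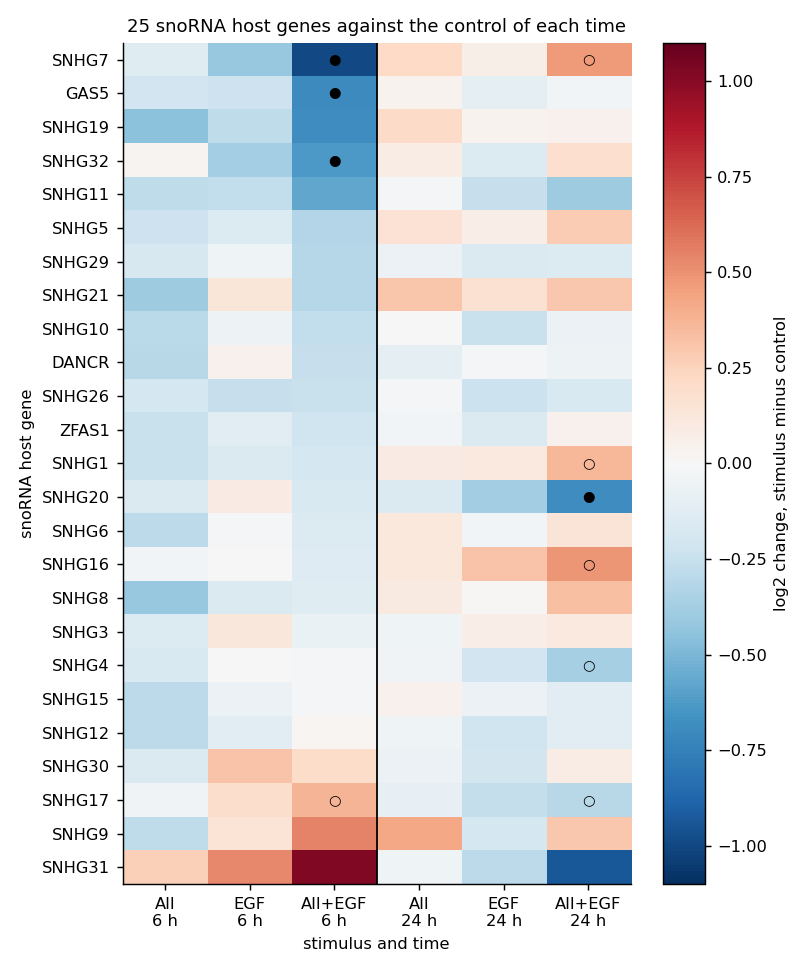
Log2 change of the 25 tested host genes (rows, ordered by AII + EGF at 6 h) by stimulus and time against the matching control (columns), where red is higher and blue lower than control. Filled circles mark the 4 calls and open circles the 6 changes with adjusted p under 0.01 that were under 1.5-fold. The AII column at 6 h is blue in 23 of 25 rows, and no mark falls outside the AII + EGF columns.

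At 24 h AII + EGF lowered a host gene that was not called at 6 h. SNHG20, which hosts SCARNA16, was the only member called, beside 2.90% of all genes called and 1.20% called lower, and 5 further members passed the p-value threshold with smaller changes, so that 6 of 25 passed it beside 10.4% of all genes. SNHG16, SNHG7 and SNHG1 rose and SNHG4 and SNHG17 fell. SNHG20, SNHG4 and SNHG16 had AII + EGF libraries that did not overlap with control, beside 4.73% of all genes. The median of the 25 was 0.04, beside -0.02 for all genes, with 12 of 25 below 0, and their summed level was 2008 ± 278 CPM over 6 control libraries (mean ± SD) and 2080 ± 192 CPM over 6 of AII + EGF.

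SNHG20 in the 6 control libraries at 24 h ran from 14.7 to 22.97 CPM with a median of 19.7. AII libraries held 15.6, 16.4, 17.4, 18.9 and 20.1 CPM, and EGF libraries 13.2, 13.4, 14.2, 16.6 and 17.96 CPM. After AII + EGF it ran from 9.97 to 14.5 CPM with a median of 12.3. All 6 AII + EGF libraries lay below the lowest control library, by a small margin, since control 24 h replicate 5 was far under the other 5 (19.1 to 22.97 CPM). The log2 change was -0.68 ± 0.10 for AII + EGF (adjusted p = 1.02e-05), -0.39 ± 0.11 for EGF (adjusted p = 0.0494) and -0.15 ± 0.11 for AII (adjusted p = 1.00). It was called in every alternative and without each library in turn, and within 4 title runs it lay between -0.77 and -0.56. At 6 h the gene was at 19.4, 20.2, 22.5 and 25.7 CPM in control libraries and at 16.4, 19.5, 20.8 and 21.3 CPM after AII + EGF, a change of -0.17 ± 0.13 (adjusted p = 0.324). The difference of the AII + EGF change between 24 h and 6 h was -0.51 ± 0.16 (adjusted p = 0.0175), which missed the threshold.

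SNHG7, the member with the deepest fall at 6 h, was above control at 24 h. Control libraries ran from 65.8 to 132 CPM with a median of 96.4, and AII + EGF libraries from 115 to 161 CPM with a median of 139. The groups overlapped in the control libraries at 127 and 132 CPM. AII gave 104 to 129.8 CPM (median 116) and EGF 85.2 to 132 CPM (median 103). The change with AII + EGF was 0.46 ± 0.12 (adjusted p = 0.00631), and the adjusted p stayed under 0.01 in 6 of the 12 fits without 1 library, up to 0.0237. SNHG16, which hosts SNORD1A, SNORD1B and SNORD1C, ran from 92.8 to 107 CPM in control, from 114 to 138 CPM after EGF and from 117 to 162 CPM after AII + EGF. Neither stimulated group overlapped with control, beside 1.53% of all genes for EGF. Its change was 0.48 ± 0.08 with AII + EGF (adjusted p = 5.86e-05) and 0.32 ± 0.09 with EGF (adjusted p = 0.0456), and the first stayed past the p-value threshold in all 12 such fits.

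SNHG1 lies head to head with SLC3A2. Its control 24 h libraries ran from 108 to 160.5 CPM with a median of 123, and those of AII + EGF from 146 to 180.5 CPM with a median of 166. Control 24 h replicate 6 alone, at 160.5 CPM, reached into the AII + EGF range. The change of 0.36 ± 0.10 (adjusted p = 0.00601) kept an adjusted p under 0.01 in 3 of the 12 fits without 1 library, with values up to 0.0209. At 6 h SNHG1 was at 105, 117, 118 and 140.5 CPM in control libraries, 95.3, 97.9, 100.2, 104 and 109 CPM after AII, 99.4, 102 and 121 CPM after EGF, and 101, 104, 105 and 112 CPM after AII + EGF. These groups overlapped, and the changes lay between -0.25 and -0.16 (adjusted p of 0.219 to 0.569). After AII at 24 h it was at 124, 126, 137, 138 and 150.5 CPM, and after EGF at 116, 117, 126, 142 and 184 CPM, neither past the threshold.

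SNHG4 and SNHG17 fell by less than 1.5-fold at 24 h. SNHG4, host of SNORA74A and SNORA74D, ran from 25.8 to 34.5 CPM in control and from 22.5 to 25.4 CPM after AII + EGF, with no overlap, a change of -0.36 ± 0.08 (adjusted p = 0.000732) that stayed past the p-value threshold in all 12 fits without 1 library. SNHG17 ran from 34.2 to 45.7 CPM in control and from 29.9 CPM with a median of 33.5 after AII + EGF, where the highest library lay above the 2 lowest control libraries (34.2 and 34.85 CPM), so that the groups overlapped. Its change was -0.31 ± 0.08 (adjusted p = 0.00365), under the p-value threshold in 8 of those 12 fits, and -0.32 (adjusted p = 0.0241) with library totals in place of TMM factors. EGF alone gave -0.21 ± 0.08 and -0.26 ± 0.08 for the pair (adjusted p = 0.176 and 0.0806).

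**Figure D3:**
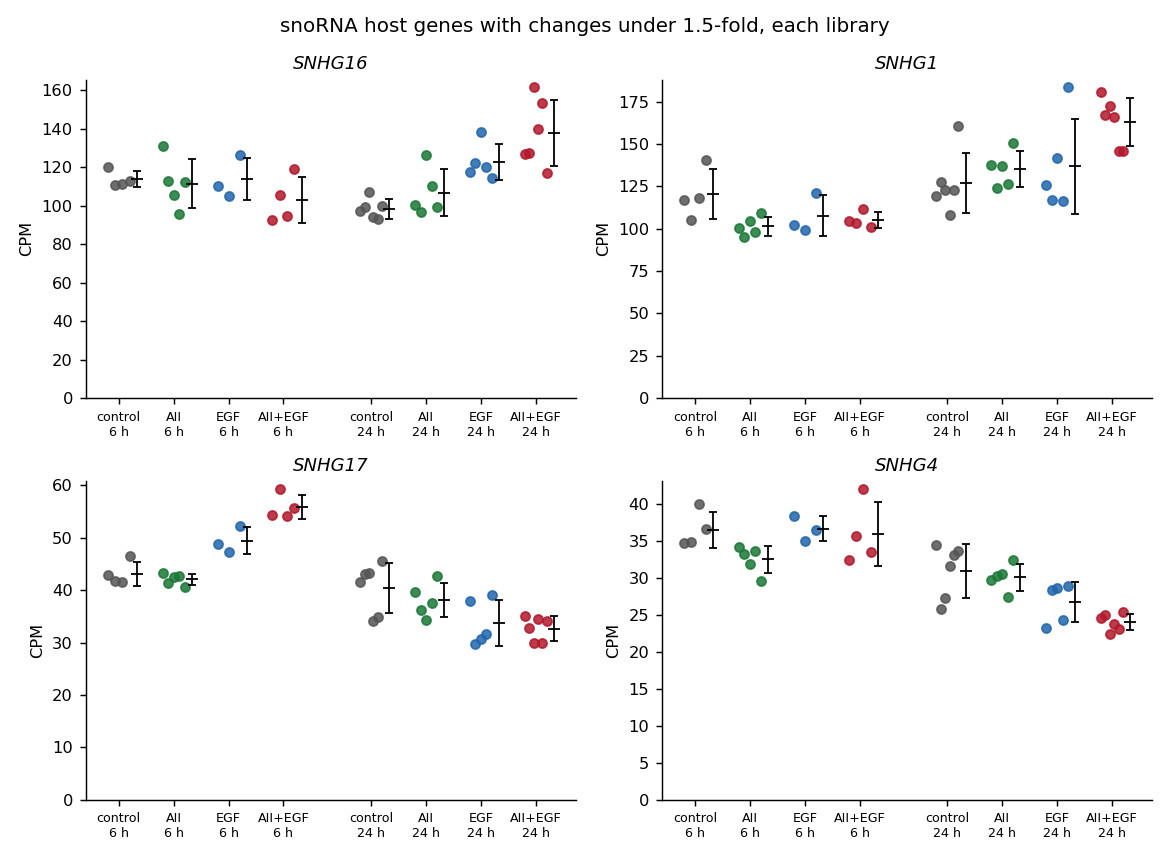
CPM (scaled by TMM factors, linear axis from 0) of SNHG16, SNHG1, SNHG17 and SNHG4 by stimulus and time, with 1 point for each library and bars for the mean ± SD. SNHG17 stands above control after AII + EGF at 6 h (54.1 to 59.3 against 41.5 to 46.5 CPM) and below most control libraries at 24 h, while SNHG16 and SNHG1 have their highest means after AII + EGF at 24 h.

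No member passed with AII alone at 24 h (0 of 25 called with edgeR and with DESeq2), beside 0.00% of all genes called. With AII 0 members had an unadjusted p under 0.05, beside 343 of 19626 genes. EGF alone at 24 h called none with either tool, beside 0.245% of all genes, and the lowest adjusted p was that of SNHG16. With EGF 4 members had an unadjusted p under 0.05, beside 2876 of 19626 genes. AII + EGF against EGF alone at 24 h also called none with either tool, beside 0.0917% of all genes. In that comparison 6 members had an unadjusted p under 0.05 with edgeR, beside 2094 of 19626 genes. Against AII alone at 24 h, AII + EGF called none of the 25 with either tool, beside 1.45% of all genes called. There 8 members had an unadjusted p under 0.05, beside 4956 of 19626 genes. SNHG20 (-0.53 ± 0.11, adjusted p = 0.00123), SNHG16 (0.37 ± 0.09, adjusted p = 0.00494) and SNHG4 (-0.32 ± 0.08, adjusted p = 0.00728) passed the p-value threshold alone. The share of all genes past that looser threshold is not given here.

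The change with AII + EGF itself differed between the times for 4 members, tested as the 24 h change minus the 6 h change, beside 11.6% of all genes called. Among the 4, SNHG7 had the largest such difference, 1.46 ± 0.20 (adjusted p = 4.97e-07), followed by SNHG32 with 0.81 ± 0.21 (adjusted p = 0.00341), SNHG17 with -0.68 ± 0.12 (adjusted p = 4.23e-05) and SNHG16 with 0.63 ± 0.13 (adjusted p = 0.000392). The change with AII alone differed between the times for no member with edgeR or DESeq2, beside 0.138% of all genes called. The same held for EGF, beside 1.03%. An unadjusted p under 0.05 was found for 3 members with AII, beside 1574 of 19626 genes, and for 5 with EGF, beside 3003. In all, 6 of 25 passed the p-value threshold for AII + EGF, beside 16.4% of all genes, with SNHG1 (0.55 ± 0.15, adjusted p = 0.00533) under 1.5-fold and SNHG31 (-1.96 ± 0.57, adjusted p = 0.00935) under 5 CPM. All 6 had estimates of opposite sign at the 2 times. For SNHG32 the 24 h libraries of control (27.02 to 59.9 CPM, median 46.3) and AII + EGF (39.8 to 62.9 CPM, median 52.1) overlapped, with a change of 0.18 ± 0.13 (adjusted p = 0.353), and after AII and EGF it stood at 42.3, 43.6, 45.1, 52.5 and 52.7 CPM and at 32.7, 38.3, 38.6, 43.4 and 47.7 CPM. Without control 6 h replicate 3 the difference for SNHG32 was 0.74 (adjusted p = 0.0114). Without AII + EGF 6 h replicate 1 or AII + EGF 24 h replicate 3 that for SNHG16 was 0.58 and 0.57, just under 1.5-fold. With library totals in place of TMM factors SNHG17 had -0.58 (adjusted p = 0.00541), just under 1.5-fold. GAS5 did not pass, at 0.67 ± 0.24 (adjusted p = 0.0392). At 24 h its control libraries ran from 316 to 563 CPM (median 398) and its AII + EGF libraries from 313 to 486 CPM (median 397), which overlapped throughout, while AII gave 336, 366, 374, 412 and 613 CPM and EGF 305, 333, 378, 398 and 494 CPM. Its 24 h changes were 0.04 ± 0.16, -0.10 ± 0.16 and -0.03 ± 0.15 for AII, EGF and AII + EGF.

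**Figure D4:**
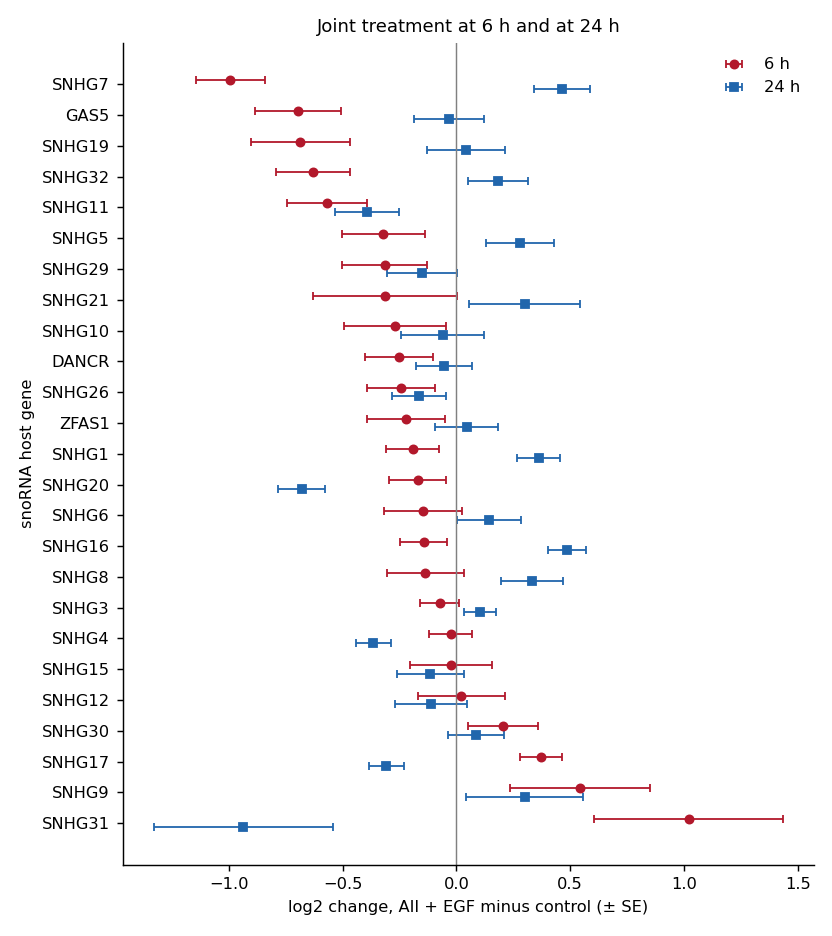
Log2 change with AII + EGF against the control of the same time (± SE) for the 25 tested host genes, at 6 h (circles) and 24 h (squares), ordered by the 6 h change. The points of SNHG7 (-0.99 and 0.46) and SNHG17 (0.37 and -0.31) lie on opposite sides of 0, as do those of SNHG32, SNHG16, SNHG1 and SNHG31 among others, and SNHG31, with few counts, has the widest bars.

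Between the controls themselves, DANCR, host of SNORA26, was the only member called over time, beside 6.73% of all genes. No title run held both times, so time and title run cannot be told apart here. DANCR read 47.5, 53.9, 55.6 and 65.0 CPM in the control 6 h libraries and ran from 27.6 to 54.7 CPM (median 33.03) at 24 h. There control 24 h replicate 3 alone, at 54.7 CPM, overlapped with 6 h. The change from 6 h to 24 h was -0.59 ± 0.14 (adjusted p = 0.00093), just past 1.5-fold. It fell under 1.5-fold, with adjusted p of 0.00223 to 0.00906, without control 6 h replicate 3 or without control 24 h replicate 1, 2, 4 or 5, and with all 48 libraries it was -0.36 (adjusted p = 0.0764). Against the control of the same time DANCR passed under no stimulus. At 6 h AII gave 35.9, 39.7, 44.6, 47.1 and 57.1 CPM, EGF 52.5, 59.4 and 59.9 CPM and AII + EGF 42.6, 44.9, 49.1 and 49.7 CPM, with changes of -0.31 ± 0.14, 0.05 ± 0.16 and -0.25 ± 0.15 (adjusted p of 0.206 to 0.922). At 24 h AII gave 27.8, 30.7, 33.5, 38.99 and 39.98 CPM, EGF 31.9, 34.9, 35.5, 35.9 and 42.9 CPM, and AII + EGF 30.9 to 38.1 CPM (median 36.04). Those 24 h libraries all lay within the range of the 24 h control, and the changes were between -0.11 and -0.02.

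ZFAS1, host of the SNORD12 family with both a TATAA and a pyrimidine start, passed in no comparison. Its control 6 h libraries were at 27.2, 27.7, 33.7 and 43.3 CPM, those of AII at 20.4, 21.8, 31.4, 31.5 and 34.2 CPM, of EGF at 28.1, 28.8 and 33.8 CPM and of AII + EGF at 23.5, 26.7, 30.5 and 32.2 CPM. All 4 groups overlapped. The 6 h changes were -0.24 ± 0.16, -0.12 ± 0.18 and -0.22 ± 0.17, with a 95% interval of -0.57 to 0.13 for AII + EGF. At 24 h control ran from 27.3 to 49.0 CPM (median 36.95) and AII + EGF from 32.2 to 43.7 CPM (median 38.6), with AII at 27.2, 32.1, 34.4, 37.4 and 50.1 CPM and EGF at 29.1, 31.8, 33.2, 34.2 and 37.2 CPM. The 24 h changes lay between -0.16 and 0.05.

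By the letters at the annotated start read for each gene, the 6 members with a C and pyrimidines had a median change of -0.27 with AII + EGF at 6 h. They lay between -0.69 for SNHG19 and 0.02 for SNHG12, and 5 of 6 were below 0. The 16 members with other starts had a median of -0.22 and 13 of 16 below 0. The 6 with TATAA had a median of -0.27 at 6 h and of 0.16 at 24 h, and the 16 without it -0.22 and -0.06. These groups shared libraries and were read off the same fits, and the differences between them were not tested. By guide kind, the 10 hosts with only SNORD genes had a median of -0.23 at 6 h and 0.11 at 24 h with AII + EGF. The 10 with only SNORA genes had -0.05 and -0.08, and the 3 with only a SCARNA gene -0.27 and -0.06. At 6 h the SNORD hosts lay between -0.69 and 0.21 and the SNORA hosts between -0.99 and 1.02. These ranges overlapped, and differences between guide kinds were not tested.

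The other members stayed short of the threshold in all 6 comparisons with control. SNHG29, host of SNORD49 and SNORD65 genes, at 381 to 852 CPM over the 38 libraries, had its largest change with AII + EGF at 6 h (-0.31 ± 0.19), as did SNHG5 at 124 to 246 CPM (-0.32 ± 0.18). SNHG15 at 50.9 to 102 CPM had -0.29 ± 0.17 with AII at 6 h, the comparison in which SNHG6 at 32.97 to 86.9 CPM (-0.29 ± 0.16), SNHG12 at 12.5 to 27.9 CPM (-0.29 ± 0.18), SNHG8 at 12.2 to 31.7 CPM (-0.42 ± 0.16) and SNHG10 at 7.44 to 18.4 CPM (-0.30 ± 0.21) were also lowest. SNHG3, at 46.7 to 66.1 CPM, had -0.15 ± 0.08 under AII at 6 h as its largest estimate. SNHG30 at 10.3 to 21.99 CPM and SNHG26 at 6.46 to 14.5 CPM had theirs under EGF at 6 h, 0.32 ± 0.16 and -0.25 ± 0.16. SNHG19 at 7.27 to 21.1 CPM and SNHG11 at 5.14 to 13.3 CPM are those given above. Few reads fell on SNHG21 at 0.808 to 4.40 CPM (-0.39 ± 0.30 with AII at 6 h), on SNHG9 at 0.211 to 1.24 CPM (0.54 ± 0.31 with AII + EGF at 6 h) and on SNHG31 at 0.195 to 1.61 CPM. SNHG31 had 1.02 ± 0.42 at 6 h and -0.94 ± 0.39 at 24 h with AII + EGF (adjusted p = 0.0552 and 0.0884), at a level where its highest count in any of the 48 libraries was 36. SNHG18 and SNHG28 had no counts in any library, which allows up to 3 counts per library, and SNHG14, SNHG22, SNHG25 and SNHG27 reached at most 14, 10, 13 and 3 counts, so that changes in these 6 were not detectable at this depth.

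Genes of the same pathway, from lists set down with earlier results of these data known, are given for context, and their counts with AII + EGF at 6 h stand beside 6.45% of all genes called higher and 5.53% called lower. Among 19 snoRNP core and assembly factors, 3 were called higher with AII + EGF at 6 h and none lower, and the median was 0.21. NAF1, an assembly factor of H/ACA particles, had 0.72 ± 0.11 (adjusted p = 2.34e-06) and NOLC1, a chaperone that shuttles between nucleolus and Cajal body, 0.69 ± 0.11 (adjusted p = 2.98e-06). The pseudouridine synthase DKC1, itself a host, had 0.49 ± 0.10 (adjusted p = 8.68e-05), under 1.5-fold. The third gene called, looked up after its value was seen, was the chaperone cofactor RPAP3 (0.71 ± 0.18, adjusted p = 0.0018). At 24 h with AII + EGF none of the 19 was called by edgeR or DESeq2, and NAF1, NOLC1 and DKC1 stood at 0.13, 0.10 and -0.12. Of the 19, 7 had an unadjusted p under 0.05 at 24 h, beside 6293 of 19626 genes. Of 31 protein-coding snoRNA hosts, 2 were called higher at 6 h and none lower, with a median of -0.06. HSPA8, a constitutive chaperone, had 0.88 ± 0.17 (adjusted p = 8.24e-05), and NCL, nucleolin, also looked up after its value was seen, 0.62 ± 0.13 (adjusted p = 0.000188). GNL3, nucleostemin, had 0.51 ± 0.10 (adjusted p = 4.68e-05), under 1.5-fold.

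Cytosolic ribosomal protein genes are known for the pyrimidine start, which 6 of the 22 hosts with an entry had. Among 77 such genes none was called with AII + EGF at 6 h by edgeR or DESeq2. Of the 77, 5 had an unadjusted p under 0.05, beside 8143 of 19626 genes. The median of the 77 was -0.19, close to that of the host genes. The 3 with the smallest adjusted p were RPL13A (-0.61 ± 0.21), RPL22 (-0.31 ± 0.12) and RPL28 (-0.61 ± 0.26). Of 20 tested TOP genes that are no ribosomal proteins, 2 were called lower and none higher, with a median of -0.22. EIF4B and EIF3E, both translation initiation genes, had -0.66 ± 0.12 (adjusted p = 5.68e-05) and -0.59 ± 0.16 (adjusted p = 0.00319). EIF3L had -0.54 ± 0.13 (adjusted p = 0.00124). Among 18 NMD factors 1 was called, the cap-binding subunit NCBP2 (0.63 ± 0.10, adjusted p = 1.42e-06), and the median was 0.07. SMG5 had 0.45 ± 0.09 and SMG9 -0.45 ± 0.10 (adjusted p = 9.98e-05 and 0.000449). Of 11 NMD substrates other than hosts, 2 were called higher, the growth-arrest genes GADD45B (1.86 ± 0.18, adjusted p = 1.00e-10) and GADD45A (0.63 ± 0.12, adjusted p = 0.00012), ATF3 was at 0.33 ± 0.16 (adjusted p = 0.114), and the median was 0.00. At 24 h with AII + EGF 2 of the 11 were called lower, beside 1.20% of all genes. They were the splicing factors SRSF2 (-0.95 ± 0.18, adjusted p = 0.000182) and SRSF6 (-0.75 ± 0.15, adjusted p = 0.000374), both looked up after their values were seen. At that time the medians with AII + EGF were 0.04 for the host genes and between -0.15 and -0.04 for the 6 lists.

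**Figure D5:**
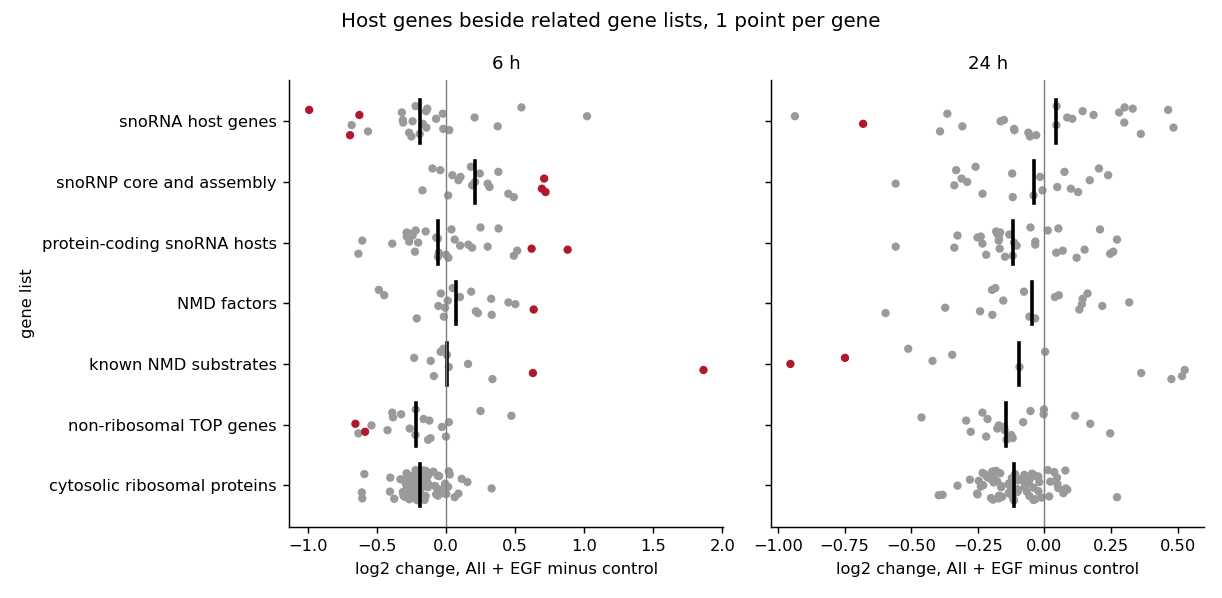
Log2 change with AII + EGF against control at 6 h (left) and 24 h (right) for the tested host genes and 6 related lists, with 1 point for each gene, red for genes called, grey for the rest and a black bar for the median. At 6 h the medians of host genes (-0.19), ribosomal proteins (-0.19) and other TOP genes (-0.22) lie left of 0 and that of snoRNP factors (0.21) right of it, and the x axes of the 2 panels differ.

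The guides themselves were hardly captured. The 991 snoRNA and scaRNA rows held 0.00363% of all counts, 403 of them had any count, and of 41 guides of the members 3 were tested (SNORD99, SNORA73B and SNORA26), with 0 called at 6 h with AII + EGF by edgeR or DESeq2, 0 at an unadjusted p under 0.05 and adjusted p of 0.341 to 0.959. Several hosts overlap or face another gene, and the counting is not stated to use strand, so reads of such pairs cannot be told apart. LRRC75A, which overlaps the span of SNHG29, was called higher with AII + EGF at 6 h (1.02 ± 0.14, adjusted p = 5.13e-07), where SNHG29 was at -0.31. ABCA12, which overlaps the span of SNHG31, had 1.19 ± 0.39 at 6 h (adjusted p = 0.0179) and -1.05 ± 0.28 at 24 h (adjusted p = 0.00736) with AII + EGF, neither called, in the same directions as SNHG31 (1.02 and -0.94). The neighbours that overlap or face the called hosts were not called: DIPK1B beside SNHG7 (-0.28 ± 0.14), ZBTB37 beside GAS5, with starts 665 bases apart on opposite strands (-0.01 ± 0.22), and, at 24 h, SEC14L1 over SNHG20 (0.36 ± 0.12, adjusted p = 0.0362). SLC3A2, whose start lies 224 bases from that of SNHG1, had 0.48 ± 0.17 at 6 h and -0.10 ± 0.13 at 24 h, and TRAF7, 424 bases from SNHG19, -0.32 ± 0.11 and 0.34 ± 0.09. Of 8 HEK293 markers, all tested, 4 were called higher with AII + EGF at 6 h, beside 6.45% of all genes. At 24 h 2 of the 8 were called higher, beside 2.90% of all genes called in either direction. Their level summed without AGTR1 was 3361 to 5738 CPM in control and 8469 to 10810.0 CPM after AII + EGF at 6 h, 3456 to 6653 and 5509 to 10890.0 CPM at 24 h, and the AGTR1 transgene rose by 1.23 ± 0.17 (adjusted p = 4.93e-07) at 6 h. Of the 6 markers of other cell types, INS was at 0 in all 38 libraries. The part of either list in the changes of the host genes was not tested.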

How the data were processed

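Poly(A) RNA of a HEK293 clone expressing AT1R was sequenced in 48 libraries. The authors aligned paired reads to hg38 with HISAT2 (2.1.0 in the submitters' processing notes) and deposited featureCounts fragment counts per Ensembl gene, as raw counts without normalisation. Whether the counting used strand, or how it treated reads with several hits, is not given in the sources used here. From these counts, 10 libraries were left out and edgeR 4.0.16 (R 4.3.3) was run on 38, with filterByExpr by group, TMM factors, a quasi-likelihood fit with 1 mean per group, and Benjamini-Hochberg adjustment over 19626 genes. CPM values use the same factors. A gene was called at an adjusted p under 0.01, at least 1.5-fold and a mean over 5 CPM. SE is the log2 change divided by the root of F, and intervals are 95% (t quantile of the fit's degrees of freedom). Intervals and floors of 3 counts cover counting error or library spread only. Totals of the libraries used were 17.78 to 29.96 M counts.

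Members, lists and tests were chosen with earlier results of these data known. GAS5, SNHG32, SNHG7, SNHG20, ZFAS1, DANCR and SNHG1 were to be given in full, other members by range and largest change, and of each list the 3 genes with the smallest adjusted p at 6 h with AII + EGF. Alternatives were DESeq2 1.42.0 (limma 3.58.1 was loaded with edgeR), other library sets, scalings, filters, thresholds, title run as a block, single libraries left out and, added after the data were seen, title-run sums. Simulated counts of 19092 genes for AII + EGF at 6 h were scored by adjusted p under 0.01, without the fold or CPM minimum. So scored, edgeR recovered 92 of 100 genes changed 2-fold and 45 of 100 changed 1.5-fold, with 2 false calls. Start sequences are RefSeq's (GRCh38.p14), with entries for 27 of the 31 members. A further marker of other cell types is not reported here.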

Additional observations from a re-analysis of the deposited data

Results flagged for a closer look

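A library stood apart from the others of its group in 4 of 77 tests by Dixon's ratio (11 host genes and controls of the text, in groups of 4 or more), about the 1 in 20 that chance gives. GAS5 in AII 24 h replicate 3 was at 613 CPM with the next library at 412. SNHG7 in control 6 h replicate 3 was at 119.9 CPM with the next at 94.97, SNHG32 in AII + EGF 6 h replicate 2 at 29.8 CPM with the next at 27.1, and SNHG1 in control 24 h replicate 6 at 160.5 CPM with the next at 127. The fall of SNHG7 with AII + EGF was called without that control library too, whereas the GAS5 call at 6 h was lost without control 6 h replicate 3.

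The response to AII + EGF differed between 24 h and 6 h for 4 host genes by the test of the difference itself. The 24 h change minus the 6 h change was 1.46 for SNHG7, 0.81 for SNHG32, 0.63 for SNHG16 and -0.68 for SNHG17 on the log2 scale. With library totals and no scaling factors the called set was GAS5, SNHG1, SNHG7, SNHG16 and SNHG32, so that SNHG17 was not in it.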

How the results depend on the processing

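No paired analysis by replicate number was possible because the labels give no number that the groups share. The title run, read from the order of the titles, was fitted as a block instead. The call counts stayed within 1.5 times the reported count in 205 cases (a comparison under an alternative) and moved further in 15. Fits without single libraries are not among these cases. In those the counts moved further in 1 of 8 fits for AII + EGF at 6 h and in 5 of 10 for the controls over time. For AII + EGF against EGF at 6 h they did so in 1 of 7. With AII + EGF at 6 h, 5 members were called with library totals without factors and with only the groups of the comparison (SNHG11 and SNHG19 added), and 1 to 4 without single libraries. At 24 h, 6 passed with no fold or abundance minimum. DANCR's call over time was lost (0 called) with all 48 libraries, without the libraries with doubtful labels only, with library totals, with the study's filter, with only those groups and with title-run sums, and in some fits without 1 library (0 to 1). AII + EGF against EGF at 6 h called 2 (SNHG7, SNHG19) without the doubtful libraries only, and 0 to 1 without single libraries (SNHG7 without AII + EGF 6 h replicate 5). Against AII it called 1 (SNHG7) at 6 h with all 48 libraries and without the near-identical pairs only, and 3 passed at 24 h with no fold minimum. The EGF response over time called 1 (SNHG17) with all 48 and 2 (SNHG17, SNHG30) without the doubtful libraries only.

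GAS5 at 6 h with AII + EGF was -0.60 (adjusted p = 0.0389) in title-run sums, and SNHG32 -0.57 (adjusted p = 0.0103) without the near-identical pairs only. With library totals the median of all genes was -0.14 (AII + EGF) and -0.11 (EGF) at 6 h and 0.12 over time, beside -0.03, -0.01 and 0.03 with TMM factors, and the median of the hosts was then -0.30 with AII + EGF at 6 h.

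Estimates near 0 that passed no test changed sign. With all 48 libraries they were -0.012 for GAS5 and AII at 24 h, and at 6 h -0.024 for SNHG32 and AII, 0.022 for ZFAS1 and AII and 0.0067 for SNHG1 and EGF. Without the doubtful libraries only, GAS5 had -0.0064, ZFAS1 0.0285 and SNHG1 0.021, and without the pairs only SNHG32 had -0.074. With library totals EGF gave -0.0077 for SNHG20 and -0.051 for DANCR at 6 h and 0.0037 for DANCR at 24 h, and title-run sums gave 0.0105 for ZFAS1 with AII at 24 h. Leaving out single libraries gave, for AII at 24 h, -0.13 to 0.16 (GAS5), -0.028 to 0.18 (SNHG32), -0.17 to 0.073 (ZFAS1) and -0.18 to 0.043 (DANCR). For EGF it gave -0.21 to 0.021 (GAS5), -0.032 to 0.16 (SNHG7), -0.094 to 0.13 (DANCR) and -0.019 to 0.20 (SNHG1) at 24 h, and -0.21 to 0.035 (ZFAS1) and -0.021 to 0.13 (DANCR) at 6 h. AII + EGF at 24 h ranged over -0.098 to 0.084 (GAS5), -0.028 to 0.14 (ZFAS1) and -0.13 to 0.092 (DANCR), and AII at 6 h over -0.0499 to 0.097 (SNHG32). The cause of these differences was not tested.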
